A study of Sus scrofa with 9 samples.

Results

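In the transcript table of pig blastocyst RNA-seq, 27312 of 147461 transcripts (18.5%) were single-exon models that the authors' assembly placed outside every annotated gene. They were chosen by 2 entries of the table, the class code for transcripts that overlap no known gene (u) and an exon number of 1, and no measured level entered the choice. They make up 41.7% of the 65523 transcripts of that class. None carried a gene name, 27249 were alone in their locus and the other 63 shared a locus with a transcript of another class.

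The series concerns pig embryos at the blastocyst stage, when an outer epithelium, the trophectoderm, surrounds a cavity and the inner cells. Its labels describe 3 groups of 3 samples: embryos that received INO80 siRNA (INO80 is the motor ATPase of a complex that moves nucleosomes), embryos that received a control siRNA, and uninjected embryos, which received no siRNA. Values of 6 libraries were used. The 3 uninjected columns match samples by title. The 3 columns named INO80 siRNA match the siRNA characteristic of a group but no sample's title, since the samples with that characteristic are titled as a water sham. Columns named for the sham and the control siRNA group were not analysed here. In any group difference below, the siRNA and the injection itself therefore cannot be told apart. Libraries are numbered as in the column names. Nothing in the labels tells whether a group's libraries were made from different pools of embryos, and the spread that the p-values rest on may therefore be technical. Positions are those of the table, for which no source used here names a pig genome build. On chromosome 1 the last transcript ends at 315248247, while the last gene of the pig build Sscrofa11.1 ends at 274280750. The positions should therefore not be read as those of Sscrofa11.1.

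An RNA assembler builds transcript models from overlapping aligned reads and joins exons where reads cross a splice junction. Splice junctions also carry the strand, so a model with a single exon often has none. In transcript assemblies such models form a mixed class known to hold unspliced non-coding RNAs, transcribed repeats, parts of genes whose annotation is incomplete and reads from unspliced RNA or genomic DNA. Early mammalian embryos are known for broad transcription outside genes, including from retrotransposons. Which of these sources a given model represents was not tested.

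Levels are in FPKM, a fragment count divided by transcript length and by the mapped fragments of the library, which sets a level per length and relative to the whole library. The signal of a transcript is its FPKM multiplied by its length, which is proportional to its fragments. No counts were used, so the number of fragments behind each value is unknown. In the uninjected libraries, whose coverage columns could be used, 1 FPKM corresponded to 4.57, 4.59 and 4.82 reads per base. In every library the trophectoderm keratin KRT8 was high (631 to 2467 FPKM) and the pluripotency factor POU5F1 was detected (17.6 to 91.4 FPKM). Of the other markers, the trophectoderm factors GATA3, TEAD4 and TFAP2C and the endoderm factor GATA6 were above 3 FPKM in every library. The trophectoderm factor CDX2 was below 1 FPKM in all but INO80 siRNA library 2, the pluripotency factor SOX2 was listed at 0 in 4 libraries and reached at most 0.753 FPKM, and the endoderm factors GATA4 and SOX17 reached at most 3.08 and 0.306 FPKM. KRT18, NANOG, the granulosa gene AMH and the blood gene PTPRC were matched to no locus. The epiblast marker TDGF1 had 9.91, 4.29 and 11.5 FPKM in INO80 siRNA libraries, against 30.6, 22.1 and 28.2 FPKM in uninjected libraries, and the part of cell makeup in the group comparisons below was not tested. The granulosa genes INHA and CYP19A1 stayed at or below 0.153 FPKM, while SERPINE2 and FST, also used as markers of those cells, ranged over 8.26 to 25.0 and 4.73 to 70.0 FPKM. The globin gene HBB stood at 23.6 FPKM in INO80 siRNA library 2 and at or below 1.03 FPKM in the other libraries. INO80 itself had 0.331, 1.37 and 2.18 FPKM in the INO80 siRNA libraries, against 0.737, 1.09 and 1.92 FPKM in uninjected libraries. The libraries labelled INO80 siRNA were thus not separated from the uninjected ones by the level of the targeted transcript, and every direction below is that of the libraries so labelled.

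The single-exon transcripts were short and their lengths were tightly grouped. Their median length was 260 bases, with quartiles of 244 and 365 bases, and the range was 200 to 7955 bases. A length of 248 bases was the most frequent, shared by 767 transcripts. Lengths of 230 to 279 bases held 14010 of them (51.3%). The same window held 49.6% of the multi-exon transcripts outside genes, 45.9% of the single-exon transcripts within introns and 0.752% of the annotated transcripts, whose median length was 1672 bases. Only 5013 single-exon transcripts outside genes reached 500 bases and 2109 (7.72%) reached 1000 bases.

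How often a transcript was found went with its length in a steep and non-monotonic way. A transcript was counted as detected in a library at 1 FPKM or more. Of the transcripts of 240 to 249 bases, 4.53% were detected in all 6 libraries. The share was 10.7% at 250 to 259 bases, 22.4% at 260 to 269 bases, 27.9% at 270 to 279 bases and 33.8% at 280 to 289 bases. It was 27.2% at 300 to 309 bases, 15.5% at 310 to 319 bases and 3.74% at 1000 to 1999 bases. The 9121 transcripts of 250 to 299 bases therefore stood out, with 20.3% detected in every library and 42.0% of all signal of the single-exon transcripts, while the 9667 of 200 to 249 bases had 3.61% and 9.37%. Within each of the 6 libraries, 42.7 to 67.9% of transcripts of 250 to 299 bases were detected, against 24.7 to 40.6% of those of all other lengths. This window was chosen after its values were seen, so no test is given.

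The other classes built by the assembler had the same shape. Of single-exon transcripts within introns, 3.55% of 200 to 249 bases, 19.9% of 250 to 299 bases and 12.8% of 300 to 499 bases were detected in every library. Among multi-exon transcripts outside genes the shares were higher, at 19.5%, 31.2% and 22.8%. Annotated transcripts of those lengths were few (132 and 163 in the shorter bins) and had 6.82%, 11.7% and 12.4%.

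**Figure D1:**
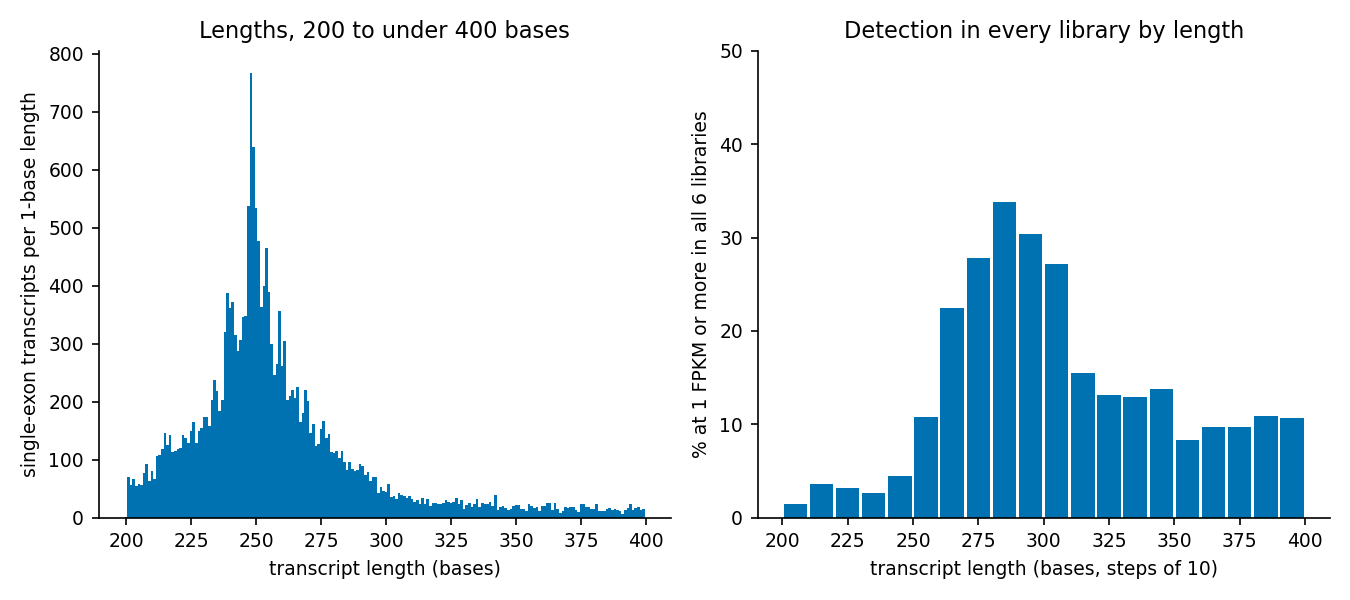
Left, number of single-exon transcripts outside genes at each length from 200 to 399 bases; right, percentage of them at 1 FPKM or more in all 6 libraries, in steps of 10 bases. The number peaks at 248 bases, while the percentage peaks at 33.8% at 280 to 289 bases.

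Most of the transcripts had no strand. In the table, 23268 (85.2%) were unstranded, 2497 were on the plus strand and 1547 on the minus strand; the unstranded share among single-exon transcripts within introns was 81.4%. Those with a strand were at higher levels. Their median of the mean FPKM over 6 libraries was 1.77 on the plus strand and 2.30 on the minus strand, against 0.880 without a strand. They were also found more widely, with 16.7% and 21.5% detected in all 6 libraries, against 9.33% of the unstranded. In each library 40.8 to 64.7% of the stranded transcripts were detected, against 30.9 to 47.1% of the unstranded, a difference in the same direction in 6 of 6 libraries that was read off after the values were seen.

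Single-exon transcripts lay far from known genes for the most part. The median distance to the nearest annotated transcript was 91205 bases, and 13106 of them (48.0%) lay over 100000 bases away. Within 5000 bases lay 2089 (7.65%), of which 1256 were upstream and 833 downstream of the annotated transcript. Within 1000 bases there were 276 upstream and 33 downstream. The assembly has a separate class for models just downstream of a gene, the position of unannotated 3' ends. It held 997 transcripts, all with a single exon, of which 895 lay downstream of the nearest annotated transcript, 802 of them within 2000 bases. These 997 are not counted among the transcripts described here. The downstream transcripts counted above are, so the class is not free of models just downstream of genes.

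Transcripts close to genes reached 1000 bases more often than distant ones, and their median level was lower. Of those within 5000 bases, 13.8% reached 1000 bases, against 5.98% of those over 100000 bases away. On the downstream side of genes 19.4% of the transcripts within 5000 bases reached 1000 bases, against 10.1% on the upstream side. Their median mean FPKM was 0.873 within 5000 bases and 1.06 beyond 100000 bases, and 8.47% and 12.0% were detected in every library. The level of a single-exon transcript had almost no relation to that of its nearest annotated neighbour. Spearman's rho across transcripts was between -0.05 and 0.00 in the 4 distance bins, values that share libraries and are not independent replicates.

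The density of the transcripts varied much less from chromosome to chromosome than that of annotated ones. Over 19 chromosomes, Y left out, their density ran between 8.90 per Mb on chromosome 14 and 11.7 per Mb on chromosome 11, a coefficient of variation of 8.04%. Annotated transcripts ran between 3.77 per Mb on chromosome 11 and 15.8 per Mb on chromosome 12, a coefficient of variation of 38.1%. Chromosome 11 was thus the sparsest in annotated transcripts and the densest in single-exon transcripts outside genes. Multi-exon transcripts outside genes lay in between, at 12.1 to 18.4 per Mb with a coefficient of variation of 12.1%. The share detected in all 6 libraries was 7.55% on chromosome 18 and 14.5% on chromosome 15, the ends of its range. Chromosome Y carried 6 of the transcripts within its 1.60 Mb of the table, or 3.74 per Mb. Another single-exon transcript outside genes lay within 5000 bases of 7623 of them (27.9%), and the median distance to the nearest one was 13665 bases. How evenly they were spread within a chromosome was not tested.

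**Figure D2:**
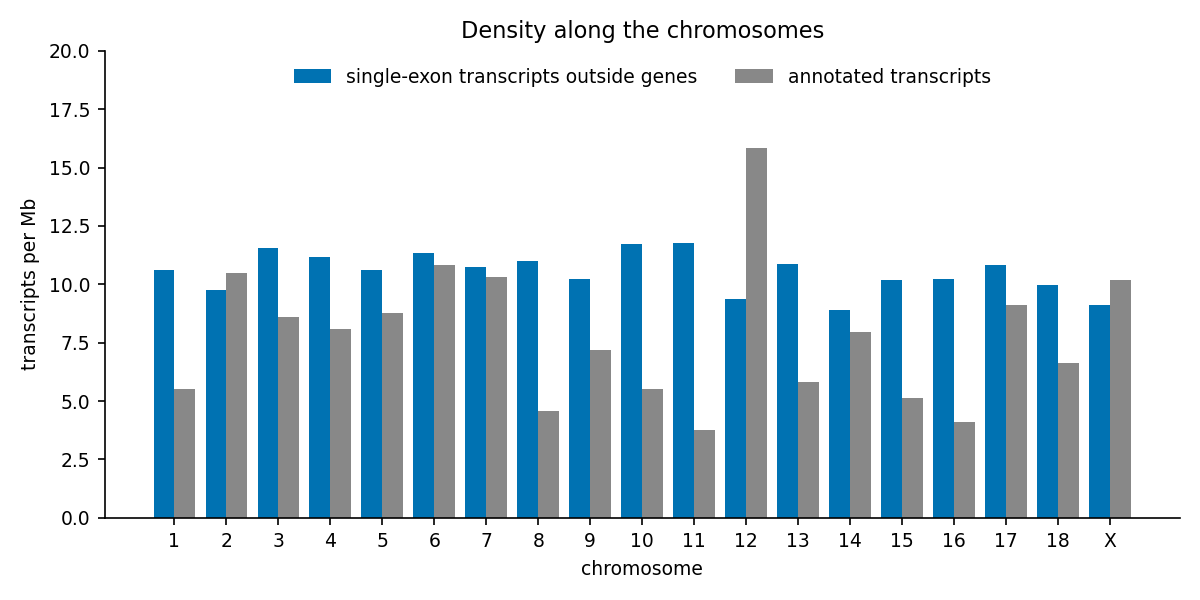
Transcripts per Mb on chromosomes 1 to 18 and X (Y is not drawn), for single-exon transcripts outside genes (blue) and annotated transcripts (grey); a chromosome's length is taken up to its last transcript end in the table. The blue bars stay between 8.90 and 11.7, and the grey bars between 3.77 and 15.8.

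Detection was mostly narrow. At 1 FPKM or more, 10106 of the transcripts (37.0%) were detected in 1 library, 4631 in 2, 2821 in 3, 2194 in 4, 1968 in 5 and 2922 (10.7%) in all 6, while 2670 reached 1 FPKM in none. A value of 0 in all 6 libraries was listed for 991. The transcripts found in 1 library had a median of 2.36 FPKM there, 1859 of them had at least 5 FPKM and 3630 were listed at 0 in every other library. They were unevenly divided between libraries, with 1110, 843 and 2533 in INO80 siRNA libraries 1, 2 and 3, and 988, 2575 and 2057 in uninjected libraries 1, 2 and 3. The transcripts detected in all 6 libraries held 59.5% of the signal of the whole class, had a median length of 275 bases, against 255 bases for those found in 1 library, and were unstranded in 74.3% of cases. Even these varied widely, with a median coefficient of variation over the 6 libraries of 64.1%.

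Compared with the other classes within each library, single-exon transcripts outside genes were detected less often than multi-exon ones and, with all lengths pooled, more often than annotated ones, while no difference from single-exon transcripts within introns passed. In the 6 libraries 33.5 to 49.7% of them were detected, against 47.7 to 67.6% of multi-exon transcripts outside genes, a mean difference of -17.5 percentage points ± 3.60 (SD, n = 6) in the same direction in 6 of 6 libraries (two-sided exact sign-flip permutation test, p = 0.03125, the smallest that 6 libraries allow, and 0.046875 after Benjamini-Hochberg adjustment over 6 comparisons). Single-exon transcripts within introns were at 32.6 to 46.5%, a mean difference of -0.80 points ± 3.04 (exact p = 0.5). Annotated transcripts were at 25.5 to 32.6%, so the single-exon transcripts were higher by 9.61 points ± 4.91 in 6 of 6 libraries (exact adjusted p = 0.046875). That excess rested on the short transcripts. Under 500 bases the single-exon transcripts were detected more often than annotated ones in 6 of 6 libraries (32.8 to 53.5%, against 19.5 to 23.1%). At 500 bases or more, where most annotated transcripts lie, they were detected less often in 4 of 6 libraries, and more often only in uninjected libraries 2 and 3, a split that was not tested. Among detected transcripts the order of levels was another. The median of the detected single-exon transcripts was 2.20 to 3.92 FPKM, below that of multi-exon transcripts outside genes (3.13 to 6.05 FPKM, mean difference -1.29 ± 0.448, exact adjusted p = 0.046875) and below that of annotated transcripts (4.34 to 5.33 FPKM, mean difference -1.73 ± 0.764, exact adjusted p = 0.046875). Against single-exon transcripts within introns the difference was -0.07 FPKM ± 0.083 and did not pass (exact adjusted p = 0.075). Assembled models exist because reads were seen in some library of the series, while annotated ones are listed whether or not reads were seen, which bears on each comparison with annotated transcripts.

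**Figure D3:**
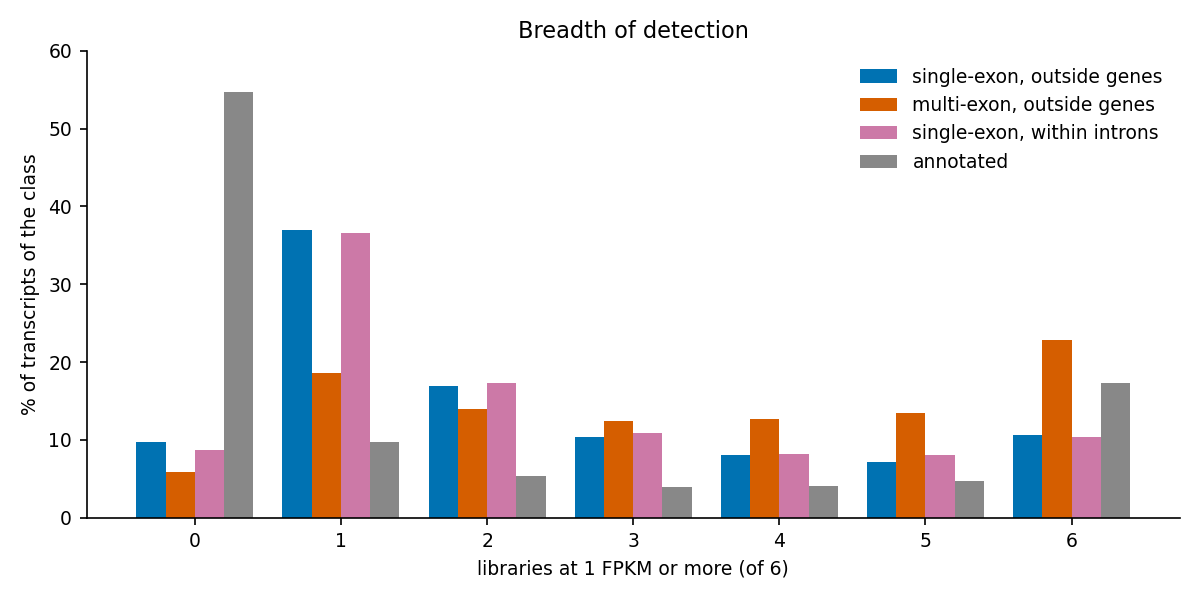
Percentage of the transcripts of 4 classes that reached 1 FPKM in 0 to 6 of the 6 libraries. Detection in 1 library is the highest bar of single-exon transcripts outside genes (37.0%) and within introns (36.5%), against 18.6% of multi-exon transcripts outside genes, while 54.6% of annotated transcripts reached 1 FPKM in no library.

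A few transcripts carried much of the signal. The median of the mean FPKM was 0.975, with quartiles of 0.451 and 2.70. A mean of 10 FPKM was reached by 1885 transcripts, of 100 FPKM by 63 and of 1000 FPKM by 2. Of the class's signal, 50% lay in 626 transcripts, and 22.3% lay in the 10 with the largest mean share of library signal.

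The transcript with the largest share was also the longest. MSTRG.43467.1 (chr2:5806020-5813974, minus strand, 7955 bases) had 412, 253 and 301 FPKM in INO80 siRNA libraries, against 113, 422 and 1171 FPKM in uninjected libraries. The groups overlapped, and the uninjected libraries spanned a wider range on both sides. Its mean share was 0.479% of a library's signal.

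The highest level by far belonged to MSTRG.70966.1 (chr7:1427595-1427876, plus strand, 282 bases), whose nearest annotated transcript, of the fucose-pathway enzyme gene GMDS, lies 41017 bases away. It had 6135, 6819 and 7595 FPKM in INO80 siRNA libraries, against 7033, 8866 and 4737 FPKM in uninjected libraries. The level was high in every library and the groups overlapped, with a coefficient of variation of 20.2%, well under the class's median for transcripts found everywhere.

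MSTRG.81214.1 (chr9:5426366-5427290, 925 bases) had 2071, 2574 and 1939 FPKM in INO80 siRNA libraries, against 2179, 1649 and 42.1 FPKM in uninjected libraries. Uninjected library 3 stood far below the other 5. MSTRG.56762.1 (chr4:59238644-59240069, 1426 bases) had 197, 1154 and 468 FPKM in INO80 siRNA libraries, against 885, 704 and 404 FPKM in uninjected libraries, with the uninjected values inside the range of the others.

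MSTRG.52438.1 (chr3:71584401-71584765, 365 bases) lies between SEMA4F, a semaphorin gene 6488 bases away, and M1AP, 7044 bases away. It had 291, 973 and 248 FPKM in INO80 siRNA libraries, against 690, 683 and 1972 FPKM in uninjected libraries. INO80 siRNA library 2 lay within the uninjected range and the other INO80 siRNA libraries below it. MSTRG.34380.1 (chr15:117237610-117239691, plus strand, 2082 bases) had 170, 0 and 100 FPKM in INO80 siRNA libraries, against 57.8, 72.3 and 72.4 FPKM in uninjected libraries. It was listed at 0 in 1 library while all others were above 50 FPKM.

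MSTRG.64446.1 (chr6:872705-878382, plus strand, 5678 bases), 2154 bases from the microRNA gene ssc-mir-4332, owed its rank to a single library. It had 0.044, 2.15 and 20.9 FPKM in INO80 siRNA libraries, against 0.222, 0.105 and 368 FPKM in uninjected libraries, so that uninjected library 3 alone was above 100 FPKM. MSTRG.21697.1 (chr13:87441973-87442317, minus strand, 345 bases) had 505, 38.2 and 327 FPKM in INO80 siRNA libraries, against 344, 782 and 275 FPKM in uninjected libraries. MSTRG.48419.1 (chr2:138698233-138698516, 284 bases), 2376 bases upstream of HINT1, had 449, 237 and 719 FPKM in INO80 siRNA libraries, against 980, 42.1 and 15.0 FPKM in uninjected libraries. In both of these the groups overlapped.

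The last of the 10, MSTRG.23861.1 (chr13:154446093-154446400, 308 bases), had 215, 256 and 373 FPKM in INO80 siRNA libraries, against 211, 1081 and 120 FPKM in uninjected libraries. Uninjected library 2 was the only one above 400 FPKM. Another single-exon transcript of the same length, MSTRG.23865.1 (chr13:154521515-154521822), lies on the same chromosome and had nearly the same values, 200, 235 and 389 FPKM in INO80 siRNA libraries, against 192, 1012 and 110 FPKM in uninjected libraries. Each was followed by a model of 278 bases, MSTRG.23862.1 and MSTRG.23866.1, with 1.93 to 9.35 and 1.14 to 8.18 FPKM in INO80 siRNA libraries, against 1.26 to 2.66 and 0.204 to 1.75 FPKM in uninjected libraries. The pair was picked after its values were seen. Whether the 2 regions share sequence, so that reads could be divided between them, was not tested, and the level of each is uncertain.

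**Figure D4:**
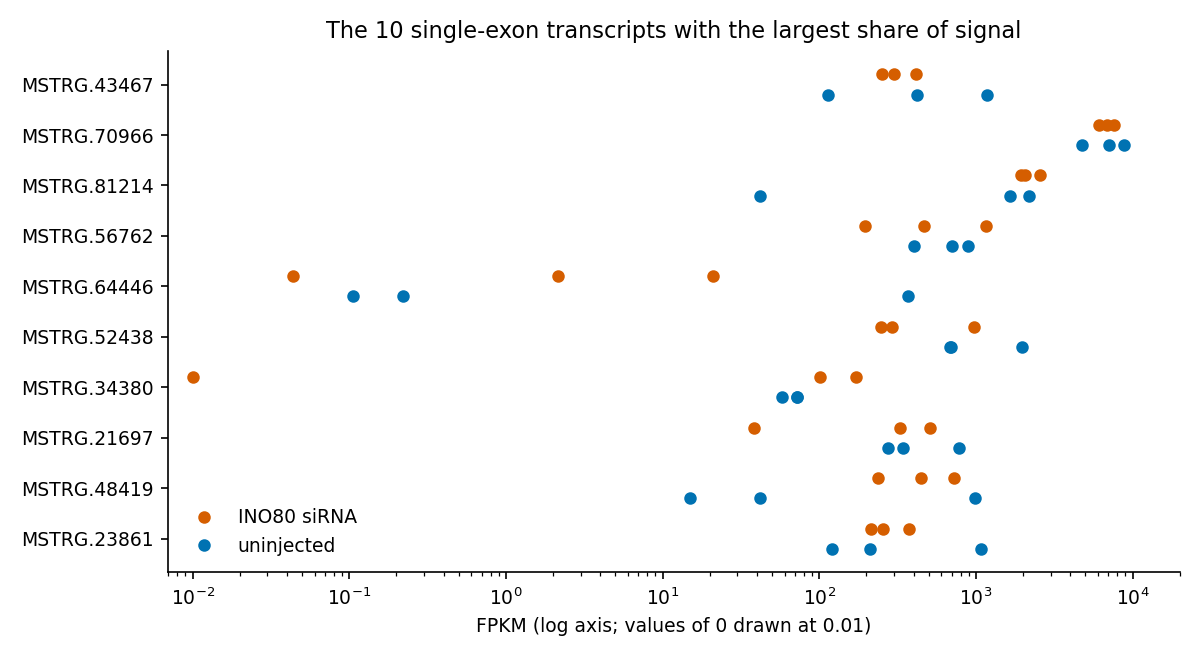
FPKM on a log axis in 3 INO80 siRNA libraries (orange) and 3 uninjected libraries (blue) for the 10 single-exon transcripts with the largest mean share of library signal; each point is 1 library and a value of 0 is drawn at 0.01. MSTRG.70966 lies between 4737 and 8866 FPKM in every library, while MSTRG.64446 ranges over 0.044 to 368 FPKM.

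Other transcripts were high in every library without being steady. Besides MSTRG.70966.1, MSTRG.52438.1 and MSTRG.56762.1, of which MSTRG.52438.1 and MSTRG.56762.1 had coefficients of variation of 78.0% and 54.9%, the highest minima belonged to MSTRG.72516.1 (chr7:37244982-37245258, plus strand, 277 bases), with 227, 401 and 406 FPKM in INO80 siRNA libraries, against 331, 423 and 223 FPKM in uninjected libraries, and to MSTRG.76043.1 (chr7:128430520-128430810, 291 bases), with 191, 223 and 174 FPKM in INO80 siRNA libraries, against 735, 474 and 226 FPKM in uninjected libraries. The groups overlapped for MSTRG.72516.1, with a coefficient of variation of 27.0%, and did not for MSTRG.76043.1, with one of 66.3%, whose difference did not pass (limma adjusted p = 0.827). The smallest relative spread was that of MSTRG.65179.1 (chr6:18954527-18954803, plus strand, 277 bases), with 10.6, 8.22 and 9.11 FPKM in INO80 siRNA libraries, against 11.12, 11.03 and 9.56 FPKM in uninjected libraries, a coefficient of variation of 11.7%. The next 4 in this order, MSTRG.16946.1, MSTRG.55745.1, MSTRG.54798.1 and MSTRG.39125.1, had coefficients of variation of 12.5 to 14.9% at mean levels of 1.46 to 4.90 FPKM.

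At the other end were transcripts with a high level in a single library. MSTRG.78853.1 (chr8:80489274-80489709, 436 bases) had 0.140, 0 and 224 FPKM in INO80 siRNA libraries, against 0.125, 0.150 and 0 FPKM in uninjected libraries. MSTRG.6790.1 (chr1:214458477-214458727, 251 bases) had 166 FPKM in INO80 siRNA library 3 and was listed at 0 in the other 5. MSTRG.5471.1 and MSTRG.24703.1 reached 148 and 123 FPKM in INO80 siRNA library 3 and stayed below 1 FPKM elsewhere, and MSTRG.40070.1 reached 118 FPKM in uninjected library 2 and at most 0.224 FPKM elsewhere. Of these 5, 4 had their high value in INO80 siRNA library 3. Of the 5 longest models, MSTRG.43467.1 and MSTRG.64446.1 are described above, and the other 3 did not exceed 50 FPKM in any library. Of these, MSTRG.50357.1 (7403 bases) had 1.52, 13.2 and 2.89 FPKM in INO80 siRNA libraries, against 13.8, 5.25 and 42.0 FPKM in uninjected libraries. MSTRG.25503.1 (5686 bases, 532 bases upstream of the proteasome-assembly gene PSMG1) had 0.555 to 1.08 FPKM in INO80 siRNA libraries, against 0.300 to 1.60 FPKM in uninjected libraries. MSTRG.52642.1 (5639 bases) had 1.31 to 2.41 FPKM in INO80 siRNA libraries, against 0.139 to 3.27 FPKM in uninjected libraries.

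The share of a library's signal that fell on single-exon transcripts outside genes overlapped between the groups. It was 5.11%, 4.41% and 7.68% in INO80 siRNA libraries, against 4.42%, 6.56% and 5.08% in uninjected libraries. INO80 siRNA library 3 was the highest, and the means were of 5.74% ± 1.72 and 5.35% ± 1.09 (n = 3 in each group, SD; exact permutation test, two-sided, p = 0.7, where 3 against 3 cannot go below 0.1). In bulk libraries fewer cells of a type and less RNA per cell cannot be told apart. Without INO80 siRNA library 3 the difference was -0.59 points, and without uninjected library 1 it was -0.08 points, against 0.38 points with all libraries. Detection too was highest in INO80 siRNA library 3, with 37.0%, 36.0% and 49.7% of the transcripts in INO80 siRNA libraries, against 33.5%, 42.7% and 35.4% in uninjected libraries (means 40.9% ± 7.66 and 37.2% ± 4.85, SD, n = 3 each; exact p = 0.5). Without INO80 siRNA library 3 that difference of 3.71 points was -0.70 points. At a lower threshold the groups separated, and other classes were not looked at there. At 0.1 FPKM the difference was 7.48 points (exact p = 0.1, the smallest that 3 against 3 allow), and the share of transcripts listed above 0 was 61.8%, 63.3% and 69.8% in INO80 siRNA libraries, against 54.1%, 56.8% and 59.7% in uninjected libraries. At 1 FPKM the groups did not overlap for transcripts of 250 to 299 bases. There 54.4%, 54.7% and 67.9% were detected in INO80 siRNA libraries, against 51.1%, 53.5% and 42.7% in uninjected libraries, a difference of 9.91 points. INO80 siRNA library 1 and uninjected library 2 lay close together. Because this window was chosen after its values were seen, no test is given. For shorter and for longer transcripts the groups overlapped, and at 500 bases or more the difference was -11.2 points. Whether other classes differed between the groups in this window was not tested.

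Splitting the class at 500 bases gave a different picture of the libraries. Shorter transcripts were detected at 40.0%, 39.9% and 53.5% in INO80 siRNA libraries, against 37.5%, 41.9% and 32.8% in uninjected libraries. Transcripts of 500 bases or more were detected at 23.3%, 18.8% and 32.9% in INO80 siRNA libraries, against 15.6%, 46.2% and 46.8% in uninjected libraries. Uninjected libraries 2 and 3 thus stood apart, both from the INO80 siRNA libraries and from uninjected library 1. Only in these 2 libraries were long transcripts found more often than short ones, by 4.30 and 14.0 points, while in the other 4 they were found less often by 16.7 to 21.9 points. The group means for long transcripts, 25.0% ± 7.17 in INO80 siRNA libraries and 36.2% ± 17.9 in uninjected libraries, did not differ beyond that spread (SD, n = 3 each; exact p = 0.4).

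Of the 2347 transcripts of 500 bases or more found in 1 library, 1809 were found in uninjected library 2 or 3. The long transcripts of these libraries were largely not the same ones. Of the 2315 detected in library 2 and the 2347 detected in library 3, 952 were shared, 41.1% of the first and 40.6% of the second. Their levels were like those elsewhere or lower, with medians of 2.30 and 1.82 FPKM among those detected, against 2.04 to 2.37 FPKM in INO80 siRNA libraries and 2.33 FPKM in uninjected library 1. At 5 FPKM or more they were 7.66% and 4.65% of all long transcripts, against 3.71 to 7.34% in INO80 siRNA libraries and 4.07% in uninjected library 1. Long single-exon transcripts within introns showed the pattern as well, at 27.0%, 23.9% and 29.6% in INO80 siRNA libraries, against 15.9%, 56.4% and 52.4% in uninjected libraries. Long multi-exon transcripts outside genes showed it only in part. They were at 41.0%, 32.1% and 49.9% in INO80 siRNA libraries, against 33.6%, 47.4% and 41.2% in uninjected libraries, with INO80 siRNA library 3 the highest. In every library they were detected less often than the shorter ones. The shorter ones were at 61.33%, 63.06% and 71.96% in INO80 siRNA libraries, against 58.05%, 58.99% and 49.24% in uninjected libraries. The shortfall of the long ones was thus smaller in uninjected libraries 2 and 3 than in any other library. Long annotated transcripts were at 26.1%, 28.6% and 33.5% in INO80 siRNA libraries, against 30.3%, 31.5% and 31.6% in uninjected libraries. What sets these libraries apart was not tested.

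**Figure D5:**
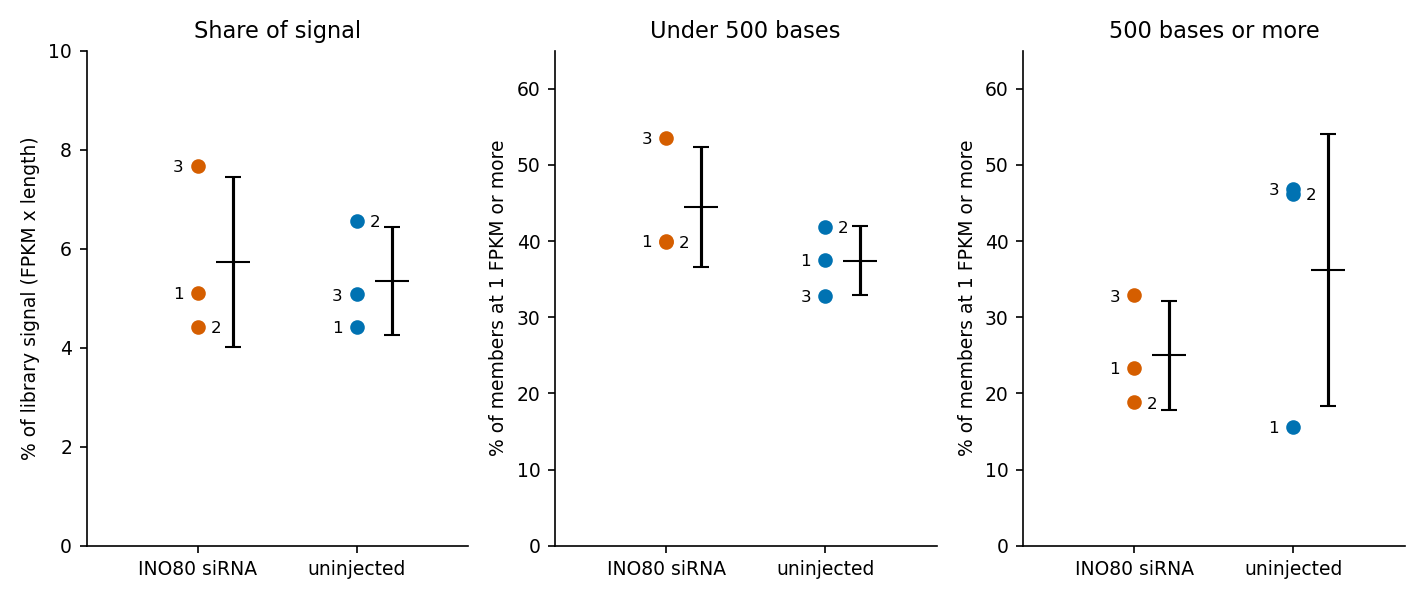
Single-exon transcripts outside genes in each library: share of library signal (left), and percentage at 1 FPKM or more among transcripts under 500 bases (middle) and of 500 bases or more (right). Points are libraries with their numbers, and bars are means with SD (n = 3 each); in the right panel uninjected libraries 2 and 3 lie at 46.2% and 46.8%, above all others.

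Across all transcripts tested for a difference between INO80 siRNA and uninjected libraries, no single-exon transcript outside genes passed. The test was run with limma on log2(FPKM + 1) over 104522 transcripts, of which 17469 were of the class; its other 9843 members had a mean below 1 FPKM in both groups and were not tested. At an adjusted p of 0.05, 6 transcripts were called (0.00574%), none of them of the class, whose lowest adjusted p was 0.171. At an unadjusted p under 0.05, 555 members were higher (3.18%, beside a background of 3.47% over all transcripts) and 134 were lower (0.767%, beside 1.08%). The groups did not overlap for 1515 members higher in INO80 siRNA libraries (8.67%, beside 7.90%) and for 326 lower (1.87%, beside 2.72%). These shares lie near those of all transcripts. The median log2 difference of the tested members was 0.33, beside 0.25 over all transcripts, and with quantile normalization the medians were 0.06 and -0.01, so the excess of higher over lower transcripts depended on the scaling. Under quantile normalization 369 members were higher and 267 lower at an unadjusted p under 0.05.

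The 5 transcripts with the smallest p and separate groups in each direction are the extremes of the 17469 members tested, picked for a small p, and none passed. MSTRG.80087.1 (chr8:120641588-120641862, 275 bases) lies 27836 bases upstream of CASP6, which encodes an executioner caspase. It had 24.8, 33.4 and 41.4 FPKM in INO80 siRNA libraries, against 0, 0 and 0 FPKM in uninjected libraries (limma adjusted p = 0.171). This presence in all libraries of one group and listing at 0 in all of the other gave an adjusted p of 0.0430 with a pseudocount of 0.1, and the range over the alternatives was 0.0430 to 0.465. MSTRG.55250.1 (chr4:11885072-11885469, 398 bases) had 65.6, 152 and 291 FPKM in INO80 siRNA libraries, against 0.248, 2.78 and 2.58 FPKM in uninjected libraries, a log2 difference of 5.81 (SE 0.828, limma adjusted p = 0.219).

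MSTRG.983.1 (256 bases) had 10.3, 29.8 and 21.3 FPKM in INO80 siRNA libraries, against 0, 0 and 0 FPKM in uninjected libraries (limma adjusted p = 0.262). MSTRG.48615.1 (273 bases) had 27.2, 25.8 and 73.0 FPKM in INO80 siRNA libraries, against 0.354, 0.555 and 1.72 FPKM in uninjected libraries, a log2 difference of 4.42 (SE 0.744, limma adjusted p = 0.301). The fifth, MSTRG.19262.1 (248 bases), had 128, 36.6 and 12.6 FPKM in INO80 siRNA libraries, against 0.263, 0 and 0 FPKM in uninjected libraries (limma adjusted p = 0.330). All 5 were above 10 FPKM in every INO80 siRNA library and below 3 FPKM in every uninjected library.

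In the lower direction, MSTRG.35127.1 (chr15:140947690-140947943, plus strand, 254 bases) had 3.88, 1.30 and 0 FPKM in INO80 siRNA libraries, against 38.1, 36.1 and 20.8 FPKM in uninjected libraries, a log2 difference of -3.82 (SE 0.798, limma adjusted p = 0.620). MSTRG.77153.1 (chr8:27606898-27607194, 297 bases) had 0.187, 0.193 and 2.27 FPKM in INO80 siRNA libraries, against 14.0, 12.9 and 14.4 FPKM in uninjected libraries, where the 3 values were close together (log2 difference -3.14, SE 0.707, limma adjusted p = 0.725). MSTRG.4465.1, 2774 bases downstream of PATL2, a gene for an oocyte mRNA-binding protein, had 0, 0 and 0 FPKM in INO80 siRNA libraries, against 21.9, 3.85 and 8.94 FPKM in uninjected libraries (limma adjusted p = 0.673). MSTRG.16213.1 had 0.129, 0 and 0.149 FPKM in INO80 siRNA libraries, against 3.70, 22.8 and 9.55 FPKM in uninjected libraries (limma adjusted p = 0.736). MSTRG.54533.1 was listed at 0 in all INO80 siRNA libraries and had 5.04, 2.87 and 4.39 FPKM in uninjected libraries (limma adjusted p = 0.815). These 5 were between 237 and 297 bases long.

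As a whole the class did not sort the libraries by group. Across the 27312 transcripts, Spearman's rho between 2 libraries was 0.322 to 0.520 within groups (median 0.421, 6 pairs) and 0.317 to 0.515 between groups (median 0.420, 9 pairs). Transcripts are not independent replicates, and the pairs share libraries, so these are descriptions.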

How the data were processed

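Values are FPKM per transcript, as the authors deposited them, with positions, lengths, exon numbers and class codes of the same table; coverage (signal) columns deposited by the authors were used for uninjected libraries only. The submitters' processing notes name fastp, HISAT2, StringTie, edgeR, HOMER and ChIPseeker, without versions, and GRCh38.p10, a human build, although gene IDs are those of pig; no source used here states the strand setting or filters. Groups follow the siRNA characteristic. Columns named for a sham water injection equal the titles of samples with the INO80 siRNA characteristic, so 3 FPKM columns of each table and 6 coverage columns were not used, and planned use of the control siRNA group was not possible.

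Annotated transcripts have class code 0 in the table, in place of "=". The comparison of groups used limma 3.58.1 (R 4.3.3) with robust moderation and a mean trend, two-sided, on log2(FPKM + 1); transcripts entered where 1 group averaged at least 1 FPKM, with Benjamini-Hochberg adjustment over all tested; this scale understates changes of low transcripts. The procedure was tested on simulated data with the same noise for every transcript and large changes placed only in transcripts of high level. That test therefore does not tell how well changes are found at the low levels of most single-exon transcripts. Single values were compared by exact permutation tests. Python 3.11.15 with pandas 2.3.3 read the tables. Named transcripts are the 10 of largest signal share, the 5 of highest mean, length, minimum, evenness or single-library level, and the 5 of smallest p without overlap in each direction. The members, lists and rules were chosen with earlier results of these data known. Alternatives covered pseudocount, filter, normalization, moderation, detection threshold, length, windows, left-out libraries and a replicate block.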

Additional observations from a re-analysis of the deposited data

How the results depend on the processing

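The difference in signal share between INO80 siRNA and uninjected libraries was -0.45 points for transcripts of 500 bases or more and -0.59 to 1.04 points with 1 library left out; that in detection was -11.2 points and -0.70 to 6.46 points, and at thresholds of 0.1 and 5 FPKM it was 7.48 and 2.75 points. None of these passed, and 3 libraries a group cannot give an exact p under 0.1. At 0.1 and 5 FPKM, 6931 and 675 transcripts were detected in every library. Within 1000 and 10000 bases of an annotated transcript lay 309 and 3914. Differences from other classes kept their direction with 1 library left out, at -18.6 to -16.9 points (multi-exon) and 8.10 to 10.7 points (annotated) in detection and -1.37 to -1.13 and -1.99 to -1.52 FPKM in median level; with 5 libraries an exact p cannot go below 0.0625. A pseudocount of 0.1 called 24 transcripts, 1 of them of the class; no filter called 0, and so did leaving out any 1 library (0 to 0). Members at an unadjusted p under 0.05 numbered 164 higher and 57 lower with a filter of 5 FPKM, where fewer were tested, 369 and 267 with quantile normalization, 379 and 266 with median scaling, and 323 to 775 and 84 to 344 with 1 library left out; the cause of the shift with scaling was not tested. The log2 differences of the 5 transcripts named in each direction were recomputed under each alternative that tested them. Of these recomputed values, 128 kept direction and side of the threshold and 1 came to pass. The transcripts were picked for separate groups, so leaving out 1 library could not turn their direction. The count therefore says little about how stable they are.

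No pairing of the libraries by replicate number was seen. Deviations of same-numbered libraries correlated at -0.0006, -0.027 and -0.027, and those of different-numbered libraries at -0.022 to 0.052. With 3 libraries a group a weak pairing could be missed, so whether the numbers pair the libraries is unknown. With the replicate block, 0 transcripts were called, 455 members were higher and 136 lower at an unadjusted p under 0.05, and the differences in signal share and detection stayed at 0.38 and 3.71 points with exact p of 0.75 each.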
